A study of Saccharomyces cerevisiae with 2 samples.

Results

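The regions described here are 99 stretches of the nuclear genome of budding yeast (Saccharomyces cerevisiae) in which at least 3 neighbouring tiling probes in a row had a high ratio of nucleosomal to genomic DNA. They were selected on the measured ratio itself: the log2 of the Cy5 over the Cy3 signal, minus the median of its array, had to lie above 1.5 on both arrays at every probe of the run. Of 41403 nuclear probes, 3456 passed that threshold on both arrays (8.35%), and they fell into 2841 runs. Most runs were short, with 2347 single probes and 395 runs of 2. The 99 longer runs hold 319 probes, 0.77% of the nuclear probes and 9.23% of the high ones. Because the ratio chose the stretches, its height in them is a description and is given with no test.

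The study compared, on each of 2 tiling arrays, nucleosomal DNA (Cy5) with genomic DNA (Cy3) of cells arrested in G1 by alpha factor, a mating pheromone. The nucleosomal DNA was what remained after micrococcal nuclease had digested the chromatin, and the genomic DNA came from chromatin sheared by sonication. Both were amplified linearly before labelling. Strain and growth conditions are not given in the labels used here. Replicates 1 and 2 form the only group, were on 1 slide and carried the dyes in the same orientation, so their mean keeps any dye bias. The labels do not state whether separate cultures were used. Precision is limited by the number of arrays, and since an exact sign-flip test over 2 arrays has 0.5 as its smallest p, none was used.

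A nucleosome is a length of DNA wrapped around a core of histone proteins. Micrococcal nuclease cuts the DNA between nucleosomes, so a sequence left after digestion is read as protected. In yeast the textbook picture is a gap in the nucleosome array just upstream of most genes, where transcription factors and the polymerase machinery bind, with ordered nucleosomes on either side. Neighbouring genes can share 1 upstream region when they are transcribed away from each other (divergent), or follow each other head to tail (tandem), or point at each other (convergent, with no promoter of either gene between them). Mitochondrial DNA carries no histones. Here its median ratio was taken over 225 of the mitochondrial probes, not all of them. It was 4.47 on replicate 1 and 4.52 on replicate 2, higher than the mean of any nuclear stretch. What a high ratio means for nucleosomes therefore cannot be told from the labels alone, and the values below are those of the channels as labelled.

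The 2 arrays gave nearly the same height for every stretch. The median of the 319 member probes was 2.52 on replicate 1 and 2.56 on replicate 2, against -0.01 on both arrays for the 41084 other nuclear probes. Means of single stretches, over both arrays, lay between 1.6 and 4.15 with a median of 2.58 and quartiles of 2.31 and 3.00. The SD between the arrays was 0.021 in the median stretch and 0.084 in the most variable one, and 41 stretches were higher on replicate 1 and 58 on replicate 2. The quartiles of the stretch means thus lay much farther apart than the arrays did, although the spread between arrays may be technical only. Within a stretch the probes differed far more than the arrays did, as the plot of every stretch with the range over its probes shows.

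**Figure D1:**
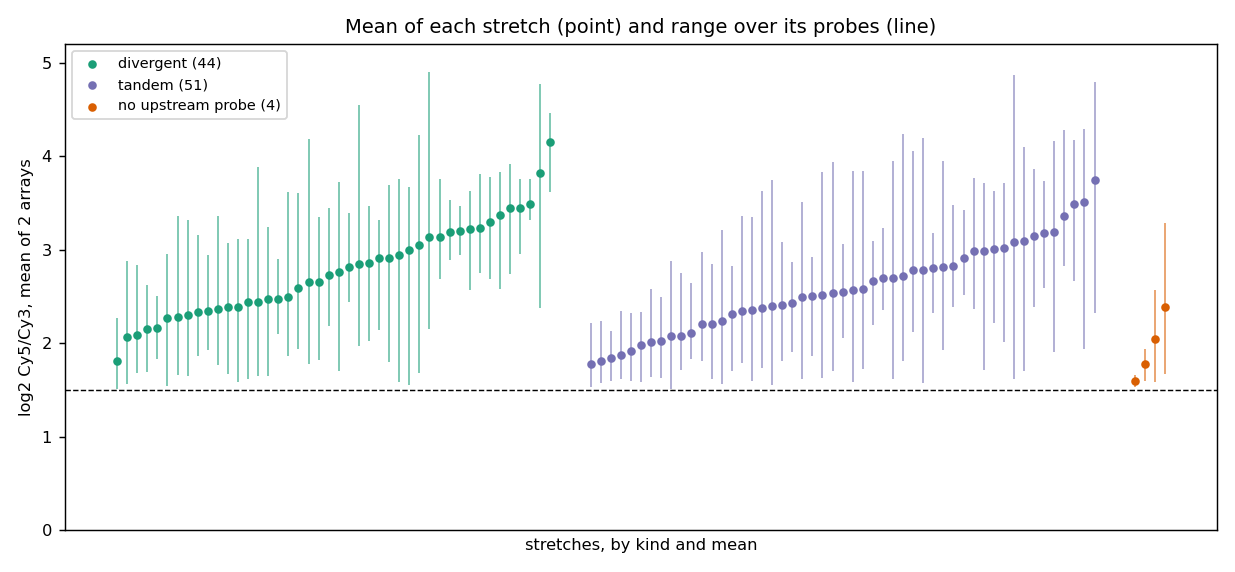
Each point is the mean log2 ratio of Cy5 over Cy3 of 1 stretch over both arrays (vertical axis), and each line runs from its lowest to its highest probe; stretches are grouped by kind and ordered by mean, and the dashed line is the threshold of 1.5. The 44 divergent and 51 tandem stretches cover a similar range, up to means of 4.15 (divergent) and 3.74 (tandem). The 4 stretches with no probe upstream of a gene lie between 1.6 and 2.39. Of these, OYE2 (1.6) and RTT101/AIM22 (1.775) lie below every divergent and tandem stretch, the lowest of which is PHO87 (1.783).

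Member probes had a median raw Cy5 brightness of 37666 and 37454 on replicates 1 and 2, against 33016 and 33263 at the other nuclear probes. In Cy3 the medians were 3596 and 3402 at member probes, against 18143 and 17189 at the others. Nuclear probes above the threshold in shorter runs were much like member probes: their Cy5 medians were 36726 and 36848, and their Cy3 medians 4139 and 3852. The dimmest member probe still had a raw Cy3 of 749 on replicate 1 and 592 on replicate 2, over local background medians of 58 and 56. Cy5 was saturated on an array at 15 member probes (4.70%), against 5.02% of all nuclear probes, and Cy3 at none of them, so ratios at those 15 are lower bounds. They lie in 14 stretches, among them CIT2, FKS1, HEM13, HXK1, OYE2, SOM1/PCM1/PRB1, SUR2, the upstream stretch of MGA1 and YLL066C/PAU18, whose means are lower bounds too. Brightness cannot be set against another probe's as an amount of DNA, and the part of probe sequence in this pattern was not tested. The heights depended on the background correction. With normexp on the raw signals, 28 stretches met the rule. Over the probes of the 99, the median stretch then had 2.45 on replicate 1 and 1.71 on replicate 2, and 84 had a mean above 1.5 on both arrays. On replicate 2 the log2 mean moved by over 1.5 times in 24 of the 38 stretches named by the rule stated in the methods, and on replicate 1 in 0.

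Most stretches were only just long enough to qualify. There were 80 of 3 probes, 17 of 4, 1 of 5 and 1 of 6. From the first base of the first probe to the last base of the last, the median stretch covered 536 bp, with quartiles of 463.5 and 715.5 bp, and all stretches together covered 68832 bp. Probe starts were 220 bp apart in the median within stretches and 257 bp over the genome. Coordinates are those of the array's annotation, counted from 1. The sources used here do not name their genome build.

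The longest run in probes lay between KTI12 and HAP4 at chr11:229554-231320. HAP4 encodes the activating subunit of the HAP complex, which switches on genes of respiration, and KTI12 a factor that works with Elongator in tRNA modification. Its 6 probes, from the KTI12 side, had 2.39, 1.78, 2.30, 2.20, 4.18 and 3.04 on replicate 1 and 2.40, 1.78, 2.28, 2.21, 4.19 and 3.1 on replicate 2. The peak was thus a single probe nearer to HAP4, with a lower shoulder of 4 probes towards KTI12. The run began at the probe next to the KTI12 start and stopped before the probe next to the HAP4 start, which had 0.16 and 0.12.

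The run of 5 probes lay upstream of TYE7, which encodes a helix-loop-helix activator of glycolytic genes, at chr15:978429-979244. Its probes had 3.09, 3.43, 4.20, 4.18 and 2.66 on replicate 1 and 3.11, 3.42, 4.16, 3.91 and 2.68 on replicate 2, a dome with its top in the middle. The probe next to the TYE7 start had 0.76 and 0.81, and on the far side 1 probe at 1.2 and 1.17 led to values near 0. A tRNA gene lies in the same intergenic region by gene order. Upstream of FKS1, the catalytic subunit of the enzyme that makes wall glucan, 4 probes at chr12:808896-809597 had the same form, with 2.97, 3.49, 3.75 and 2.60 on replicate 1 and 2.92, 3.41, 3.72 and 2.59 on replicate 2. The last of these was saturated in Cy5 on replicate 2, so 2.59 is a lower bound. Both probes between that stretch and the FKS1 start were below 0, at -0.13 and -0.47 as means of the arrays.

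**Figure D2:**
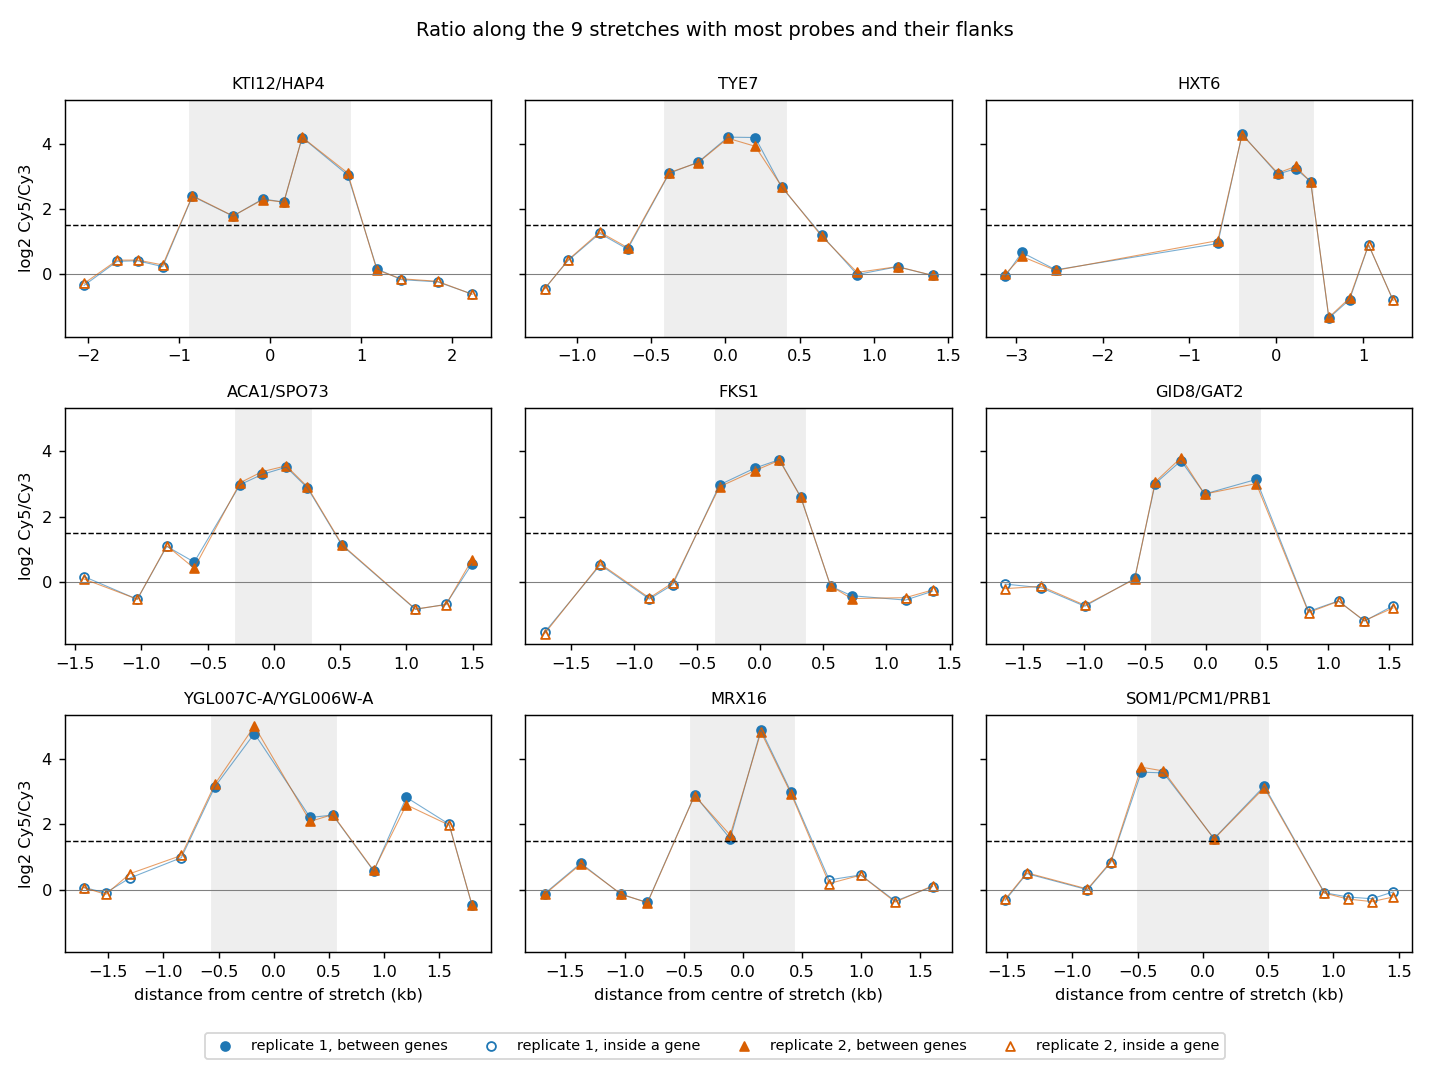
Log2 ratio of Cy5 over Cy3 (vertical axis) against distance from the centre of the stretch in kb (horizontal axis) for the stretches of 5 and 6 probes and the 7 stretches of 4 probes with the highest means, with up to 4 probes on each side. Circles are replicate 1 and triangles replicate 2, filled between genes and open inside genes, the grey band is the stretch and the dashed line the threshold of 1.5; the symbols of the arrays overlap at nearly every probe, and most flanking probes lie near or below 0.

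The highest mean belonged to the shared upstream region of RPI1 and RHO3 at chr9:138303-138806. RHO3 encodes a small GTPase of polarised secretion. Its 3 probes had 4.45, 3.65 and 4.35 on replicate 1 and 4.48, 3.60 and 4.38 on replicate 2. The next probe towards RHO3 had -0.63 and -0.62, and the 2 after it were high again, at 2.97 and 3.78 on replicate 1 and 2.90 and 3.88 on replicate 2, so the region held a second high run too short to count. Second came YDR524C-B/SNA2 (3.82 ± 0.04, SD, n = 2 arrays), and then PMP1 (3.74 ± 0.04), which encodes a small regulator of the plasma membrane proton pump. SED1, a wall glycoprotein, had 3.51 ± 0.05, TPO2/CBF2, between a polyamine exporter and a centromere-binding kinetochore protein, had 3.49 ± 0.01, and TYE7 had 3.48 ± 0.04. The step from RPI1/RHO3 down to the next stretch was larger than the SD between arrays, while SED1, TPO2/CBF2 and TYE7 lay within it. RPI1/RHO3 was also highest with loess and with normexp, but the order after it changed. With loess PMP1 (3.34) stood just above YDR524C-B/SNA2 (3.32), and with normexp SKS1/RMI1 (2.82) and NCA3/ASF1 (2.72) stood above PMP1 (2.60).

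The last member probe on a side had a median of 2.42 (198 sides), and the first probe outside a median of 0.14 (197 sides, since 1 stretch begins at the first ordered probe of its chromosome). The second and the fourth probe outside had medians of 0.09 and -0.04. A drop at the edge follows from the threshold, and the level just outside was near that of all nuclear probes (-0.004), as it was at the eighth probe out (0.15). Of the first probes outside, 45.2% were below 0. Of the same probes, 48.7% were coding. Coding ones had a median of 0.15 (96 probes) and intergenic ones of 0.13 (101 probes). Intergenic regions of 3 or more probes with no stretch probe had a higher level, with a median of 0.62 over their means. The first probe outside is, however, by the rule one that failed the threshold. Inside the stretches, probes with a member on both sides had a median of 2.66 (121 probes) and those at an edge 2.42 (198 probes).

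**Figure D3:**
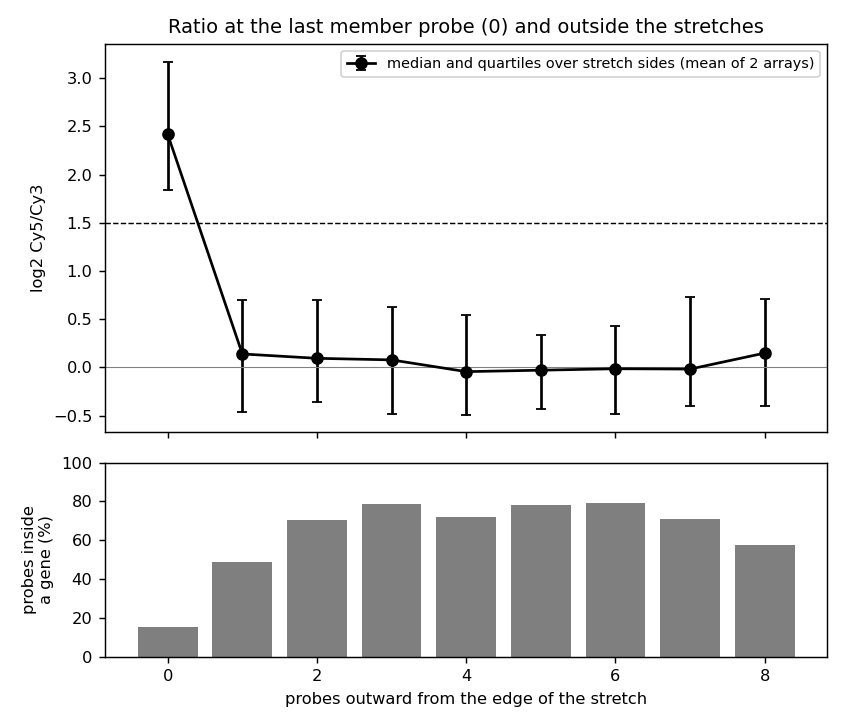
Upper panel, log2 ratio of Cy5 over Cy3 (mean of both arrays) at the last member probe (0) and at the first to eighth probe outside; points are medians and bars quartiles over up to 198 stretch sides, and the dashed line is the threshold of 1.5. Lower panel, the percent of those probes inside a gene; the median falls to 0.14 at the first probe outside and stays near 0.

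The stretches lay mainly between genes. Of the 319 member probes, 87.5% were intergenic: 141 upstream of 1 gene, 128 between divergent genes and 10 downstream of a gene, with 40 inside genes. That share was 84.3% in runs of 2, 81.7% of single high probes and 26.8% of all nuclear probes. Probes between divergent genes made up 40.1% of member probes, against 35.7% in runs of 2, 28.2% of single high probes and 8.13% of all nuclear probes. Probes upstream of 1 gene made up 44.2%, against 42.4%, 47.0% and 14.1% in the same order, and so did not become more frequent with run length. Member probes were also somewhat higher, with a median of 2.54 against 2.36 in runs of 2 and 2.23 at single probes. Within the stretches, probes between divergent genes had the highest median, 2.89, and those upstream of 1 gene had 2.58, downstream ones 1.94 and coding ones 1.81.

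By kind, 44 stretches held a probe between divergent genes, 51 lay upstream of a gene in tandem orientation with no such probe, and 4 held no upstream probe. Divergent stretches had a median mean of 2.75 and tandem ones of 2.55, with median spans of 538.5 and 563 bp. Their ranges overlap almost completely. All probes were intergenic in 72 stretches, 27 held a coding probe (27.3%), and 2 were coding throughout.

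A region must have room for 3 probes to hold a whole stretch, so regions of that size were counted. Of 1361 intergenic regions of 3 or more probes, 82 held stretch probes (6.02%), namely 45 of 579 divergent regions (7.77%), 36 of 655 tandem regions (5.50%) and 1 of 127 convergent regions (0.79%). The divergent share was uneven over region size. It was 1.99% for regions of 3 probes, 6.48% for 4, 14.1% for 5 and 27.6% for 6 (16 of 58), and 8.16% for 7 or more. In tandem regions the share was highest at 5 probes, at 11% (8 of 73). Stretch probes lay in 97 intergenic regions of any size. These include regions of fewer than 3 probes, where the stretch ran on into a gene. Of the 97, 27 lay wholly within a stretch, and in the median one 66.7% of its probes belonged to it.

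**Figure D4:**
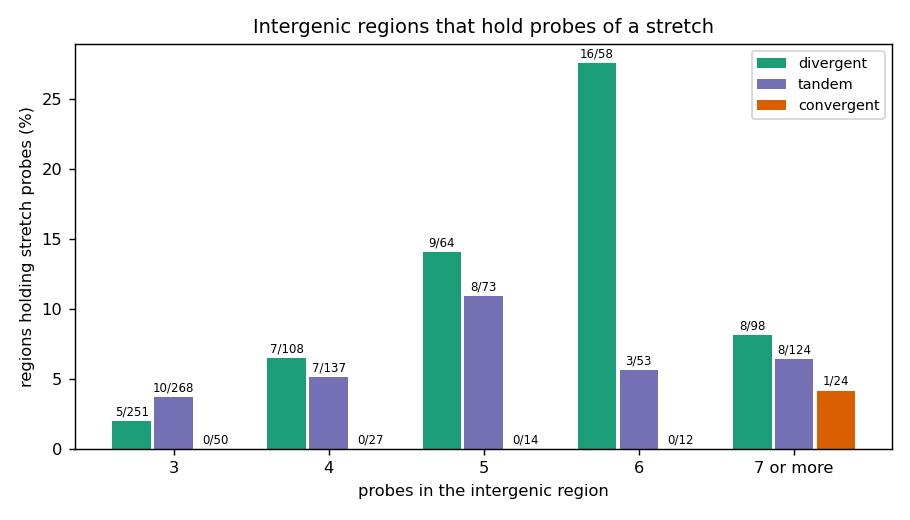
Percent of intergenic regions that hold probes of a stretch (vertical axis, bars from 0) by the number of probes in the region (horizontal axis), with the counts above the bars, for divergent, tandem and convergent regions. Divergent regions of 6 probes stand highest, at 16 of 58.

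The position of the stretch relative to the gene start differed between genes. Starts were placed midway between the last upstream and the first coding probe, which could be done for 133 pairs of a stretch and a gene in 91 stretches. The nearest member probe lay a median of 273 bp from the start (quartiles 128 and 500.5) and the farthest 750 bp (quartiles 523.5 and 1086.5), measured to the middle of the probe. The stretch took in the probe next to the start in 66 pairs and stopped short of it in 67. Where it stopped short, that probe had a median of 0.11, and 29 of the 67 were below 0. The first coding probe belonged to the stretch in 12 pairs, and over all 133 its median was 0.11. Stretches that stopped well short include those of FKS1 (nearest probe 617 bp away), HAP4 (454.5 bp) and TYE7 (374.5 bp). Those that reached the start include CDC19 (78 bp), SED1 (128 bp) and GIC2 (118 bp). Between 2 divergent genes the stretch often leaned to one of them: it reached the probe next to RPL33B (81.5 bp) and stayed 954 bp from DFR1 on the other side. The high ratio was not confined to the RPL33B side, however. Outside the stretch, the probe next to the DFR1 start had 2.22 as the mean of the arrays, against 1.70 at the one next to RPL33B.

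Genes were then taken by role from 10 lists. Over all 5654 genes with a nuclear probe, 164 had a stretch probe (2.9%). Of 5197 genes with an upstream probe, 143 had an upstream one in a stretch (2.75%), and of the 1741 with 3 or more upstream probes, 117 did (6.72%). A stretch between divergent genes counts for both. The lists differ in how much room their upstream regions give, so each count below is also given among genes with 3 or more upstream probes, to be read beside 6.72%. That cut does not match region size above 3 probes. Among divergent regions the share with stretch probes was 1.99% at 3 probes, 27.6% at 6 and 8.16% at 7 or more. A list can therefore differ from 6.72% through region size, which was not tested. These counts describe the lists and carry no test.

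Nutrient and ion transporters were touched in 10 of 56 measured genes (17.9%), and in 10 of 40 (25%) with 3 or more upstream probes. They include amino acid permeases (AGP1, BAP2, BAP3, CAN1 and PUT4), polyamine exporters (TPO1 and TPO2), the iron permease FTR1, the uridine permease FUI1 and the high-affinity glucose transporter HXT6. The HXT6 stretch, at chr4:1161642-1162489, had 4.29, 3.06, 3.23 and 2.84 on replicate 1 and 4.27, 3.1, 3.30 and 2.82 on replicate 2. It broke off within 1 probe to -1.35 and -1.33 on the side away from the gene. HXT6 is nearly identical to HXT7, no ordered probe lies inside it, and its start was not placed, so the naming of that region is uncertain. FUI1/PRE7, which FUI1 shares with a proteasome subunit gene, was lower, with 2.27 and 2.29 on replicates 1 and 2. TPO2/CBF2 had 3.50 and 3.48, with flanking probes of 1.4 and 1.44 just under the threshold on either side.

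Genes of sequence-specific transcription factors were touched in 16 of 117 (13.7%), and in 14 of 70 (20%) with 3 or more upstream probes. They were ASH1, CUP9, GAT2, HAP4, MGA1, MOT3, NRG2, PHD1, RLM1, ROX1, RPN4, SFP1, SMP1, SOK2, TOS8 and TYE7. Several are known regulators of carbon source, oxygen, stress or filamentous growth: NRG2 represses genes under glucose, ROX1 represses hypoxic genes, PHD1 and SOK2 act in filamentation, and RPN4 activates proteasome genes. Their 17 stretches had a median mean of 2.65. GID8/GAT2, with a GATA-family factor on one side and a subunit of a ubiquitin ligase on the other, had 3.14 on both arrays over 4 probes. MGA1, which encodes a relative of heat shock factor, had a stretch upstream (3.00 on both arrays) and another 2392 bp away, on the downstream side (2.40 and 2.38). That downstream stretch is 1 of 4 with no upstream probe.

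Genes of glycolysis and fermentation were touched in 5 of 22 (22.7%), and upstream in 4 of 13 (30.8%) with 3 or more upstream probes. The 4 were CDC19, which encodes pyruvate kinase, HXK1, which encodes a hexokinase, PDC1, which encodes the main pyruvate decarboxylase, and TDH3, which encodes the main glyceraldehyde-3-phosphate dehydrogenase. Upstream of TDH3 the 3 probes had 2.25, 1.96 and 3.33 on replicate 1 and 2.21, 2.03 and 3.38 on replicate 2, and the fourth, at 1.78 and 1.80, lay in the end of the neighbour PDX1. CYC3/CDC19 averaged 2.18 and 2.13 on replicates 1 and 2. PDC1 had the lowest mean of the 4-probe stretches, with probes of 1.59, 1.76, 1.93 and 2.40 on replicate 1 and 1.64, 1.53, 1.88 and 2.29 on replicate 2. The median mean of the 5 stretches was 2.15, under the 2.58 of all stretches. The fifth gene, PDC6, was touched only through 2 probes at its end, in the PIL1 stretch.

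**Figure D5:**
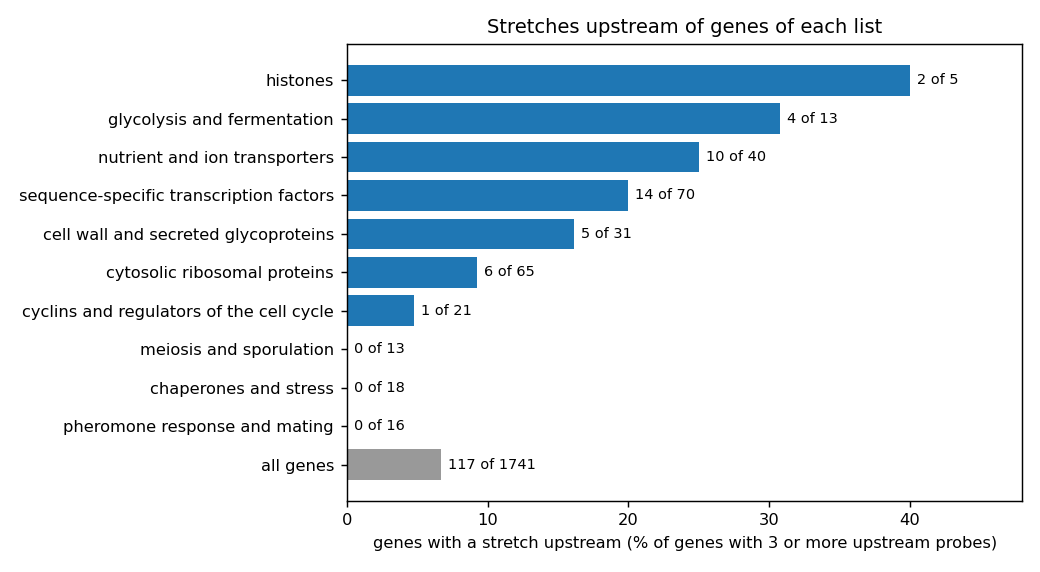
Percent of genes with an upstream stretch probe (horizontal axis, bars from 0) among genes with 3 or more upstream probes, for 10 gene lists (blue) and for all such genes (grey), with the counts beside the bars. Histones (2 of 5, through 1 shared stretch), glycolysis (4 of 13), transporters (10 of 40), transcription factors (14 of 70), cell wall genes (5 of 31) and ribosomal protein genes (6 of 65) stand to the right of all genes (117 of 1741), cell cycle genes (1 of 21) to the left, and the pheromone, chaperone and meiosis lists are at 0.

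Cell wall and secreted glycoprotein genes were touched in 5 of 40 (12.5%), and in 5 of 31 (16.1%) with 3 or more upstream probes. CRH1, a wall transglycosylase, FKS1, HSP150, PST1 and SED1 were the members. PIR5/HSP150, between 2 genes of wall proteins with internal repeats, averaged 2.90 and 2.99 on replicates 1 and 2. SED1 had 1.77, 4.53 and 4.33 on replicate 1 and 2.10, 4.06 and 4.26 on replicate 2, which is among the larger differences between the arrays at single probes.

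Cytosolic ribosomal protein genes were touched in 6 of 137 (4.38%), or 6 of 65 (9.23%) with 3 or more upstream probes, close to the share of all genes. RPS22A and RPL39 share 1 stretch that fills their intergenic region, with 2.55, 3.76 and 3.91 on replicate 1 and 2.61, 3.63 and 3.76 on replicate 2, rising towards RPL39. The first coding probe of RPL39 then had -1.38 on both arrays. UGO1/RPL27B had 3.02 and 3.09, and RPL33B/DFR1 had 2.80 and 2.73. The histone list had 2 of 11 genes touched (18.2%), HTA1 and HTB1, through the 1 stretch between them. Its probes had 2.16, 2.47 and 1.83 on replicate 1 and 2.17, 2.53 and 1.83 on replicate 2. Only 5 histone genes had 3 or more upstream probes, and these were 2 of them (40%), so that share rests on 1 stretch.

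The cells had been treated with pheromone, and 0 of 42 genes of pheromone response and mating had a stretch probe (0 of 16 with 3 or more upstream probes). Neither did any of 37 chaperone and stress genes (0 of 18) or of 40 genes of meiosis and sporulation (0 of 13). At the share of all such genes, 6.72%, a list of this size would hold about 1 gene, so a count of 0 is near the background. Of 43 cyclins and regulators of the cell cycle, 1 was touched (1 of 21 with 3 or more upstream probes, 4.76%). It was GIC2, an effector of the polarity GTPase Cdc42. Its 3 probes had 3.33, 3.74 and 2.01 on replicate 1 and 3.32, 3.70 and 2.01 on replicate 2.

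Where a stretch held both classes, 31 of 34 coding probes were below the mean of its intergenic ones. Probes at an edge were lower than inner ones in general (medians 2.42 and 2.66), and the part of edge position in this was not tested. Of 40 coding probes, 19 adjoined the gene's end (14 stretches), 15 its start (12 stretches), and 6 made up the 2 stretches that are coding throughout. In 22 of 25 mixed stretches the coding probes averaged less than the intergenic ones, and over the 25 the median difference, coding minus intergenic, was -0.74. MOT3 went the other way. Upstream of this gene, which encodes a zinc-finger regulator of transcription, the last probe in the neighbour NAT4 had 3.94 and 3.93, against 2.0 and 1.97 at the intergenic probe beside it. The other exceptions were ANP1, with 3.18 at the end of UTR5, and PNS1, with 2.42 at the end of YOR161C-C. ZEO1, UTH1 and MET13 each had 2 of 3 probes in the end of a neighbouring gene (SHR5, YKR041W and SCS3) and averages of 2.92 to 3.16 on the arrays.

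The stretches that are coding throughout were among the lower ones. SRL2, at chr12:293088-293517, had 1.61, 2.55 and 1.97 on replicate 1 and 1.57, 2.59 and 1.96 on replicate 2. The other crosses from RTT101, which encodes a cullin, into AIM22 at chr10:351580-352022, with 1.92, 1.67 and 1.77 on replicate 1 and 1.96, 1.53 and 1.80 on replicate 2. Between RTT101 and AIM22 there is no intergenic probe, so a short shared upstream region between them would not be seen as such. The lowest mean of all belonged to 3 probes downstream of OYE2 (1.6 ± 0.02, SD, n = 2 arrays), but 1 of them was saturated in Cy5 on replicate 1, so that mean is a lower bound.

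Wide spacing shaped a few stretches. YLL066C/PAU18, near the end of chromosome 12, runs from 5818 to 13829 because only 3 ordered probes lie in those 8012 bp. They had 3.33, 2.47 and 2.39 on replicate 1 and 3.14, 2.54 and 2.32 on replicate 2, and the DNA between them was not measured. It is 1 of 2 stretches with neighbouring probe starts over 600 bp apart. Of the others, PHO81/YHB1 (1082 bp), PBS2 (995 bp), SPT7 (985 bp) and ATP14/YLR297W (979 bp) were long for their number of probes. PHO81 encodes an inhibitor of the phosphate-response kinase, YHB1 a nitric oxide-detoxifying flavohemoglobin, PBS2 the kinase kinase of the osmotic stress pathway, SPT7 a subunit of SAGA and ATP14 a subunit of the ATP synthase. Their means lay between 1.81 (SPT7) and 2.36 (ATP14/YLR297W), below the median of all stretches. Other stretches long for their number of probes were higher, such as PMP1 (898 bp) at 3.74, ZEO1 (881 bp) at 3.14 and YGL007C-A/YGL006W-A (1126 bp) at 3.13, so the lower means of those 4 are no rule for long stretches.

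Among the remaining stretches of 4 probes, CIT2 (the peroxisomal citrate synthase) had 2.41 and 2.40 on replicates 1 and 2, OPT2 (an oligopeptide transporter) had 2.75 and 2.70, and SOM1/PCM1/PRB1 (with the vacuolar protease gene PRB1) had 2.98 and 3.02. In ACA1/SPO73 every probe lay between 2.89 and 3.53, a flat top. MRX16 and YGL007C-A/YGL006W-A instead had 1 probe far above the others, at 4.87 and 4.90, with the lowest at 1.62 and 2.15. The probe at 4.87 is annotated downstream of YCF1, and the nearest upstream probe of that stretch lay 1687 bp from the MRX16 start. YER158C, a gene of no role that can be given here, had 2.57 and 2.56.

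The other 61 stretches, all of 3 probes, had means between 1.6 and 3.45 with a median of 2.49. They include upstream regions of chromatin genes, an assortment picked after the values were seen. NCA3/ASF1, with the histone chaperone gene ASF1, had 3.30 and 3.29 on replicates 1 and 2, and EPL1/BUD27, with a subunit of the NuA4 histone acetyltransferase, had 3.21 and 3.23. IPT1/SNF11, with a subunit of the SWI/SNF remodeller, had 2.66 and 2.65, and RIF1, a telomere-binding protein, had 2.35 and 2.37. Genes of lipid and heme synthesis form another such assortment. The sphingolipid hydroxylase gene SUR2 had 2.82 and 2.84, the sterol desaturase gene ERG5 had 2.35 and 2.46, and HEM13, of heme synthesis, had 2.09 and 2.13. ERG5 and YAP1802/MPC3 differed most between the arrays, and even there the SD was 0.08.

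Every chromosome carried at least 1 stretch. Relative to probe number they were most frequent on chromosome 2, with 11 stretches or 3.95 per 1000 probes, and least on chromosome 14, with 1 stretch or 0.37 per 1000, against 2.39 over the genome. The threshold decides the membership of many. The weakest probe of PIL1 had 1.5, of KES1/POC4 1.51 and of OYE2 1.51 on the lower array, just inside. Just outside, the nearest triple sharing no probe with a stretch had a lowest value of 1.49 (chr1:198619-198957, with no gene named by the array). The next such triple, upstream of YDR042C, had 1.47. In all, 22 triples that were not wholly inside a stretch had every value above 1.4. Some of these can share probes with a stretch, as does the triple at chr5:461764-462268 (lowest value 1.47), which overlaps FTR1/LSM5. In 25 stretches the best triple had a lowest value under 1.6.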

How the data were processed

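Per the labels, nucleosomal DNA carried Cy5 and genomic DNA Cy3 on both arrays. The deposited scanner files hold spot intensity on a linear scale, background-subtracted and dye-normalized by the scanner software (Agilent Feature Extraction 9.1.3.1, per the file headers). A deposited value table holds log2 ratios. They equalled log2 of processed Cy5 over Cy3, uncentred, to within 5.00e-06 (medians -0.13 and -0.13), so the direction is the same, and the table served as an alternative.

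Of 45219 spots, 41775 were not controls. Log2 ratios of processed intensity were centred on each array's median. Of 41480 nuclear probes, 77 with Cy3 not well above background on an array were left out, and the other 41403 were ordered by chromosome and start. Runs of 3 or more probes above 1.5 on both arrays were the stretches. The run finder was tested on simulated data. Region classes and names come from the array's annotation. Of 5664 gene names, 5641 matched a yeast gene table (assembly R64) that served for current symbols, strand and gene order only.

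Stretches were named by number of probes (15), span, mean and coding share (6 each), and up to 3 per gene list. Other genes named in the text belong to a list, a count or an edge case, and those single stretches were chosen after their values were seen. The stretches, the lists and the rule were chosen with earlier results of these data known. No test was made on the ratio. Alternatives used normexp with an offset of 50 and loess (limma 3.58.1, R 4.3.3), the deposited table, thresholds of 1.25 and 2, a minimum of 4 probes, a gap limit of 600 bp, spot filters and each array alone. Other steps used Python 3.11.15, numpy 2.4.6, pandas 2.3.3 and matplotlib 3.10.9. Base composition and motifs were not analysed here, as no sequence was used.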

Additional observations from a re-analysis of the deposited data

How the results depend on the processing

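The main values were 99 stretches, 319 probes, 87.5% of probes outside genes, 27.3% of stretches with a coding probe and a median span of 536 bp. In the same order, normexp gave 28, 88, 92.0%, 17.9% and 523.5 bp, and loess gave 49, 155, 91.6%, 20.4% and 525 bp. The uncentred table gave 71, 227, 90.7%, 22.5% and 525 bp. The lower threshold gave 148, 486, 80.2%, 38.5% and 571 bp, a threshold of 2 gave 35, 113, 92.0%, 17.1% and 552 bp, and a minimum of 4 probes gave 19, 79, 97.5%, 10.5% and 848 bp. A gap limit of 600 bp gave 97, 313, 87.2%, 27.8% and 535 bp. Without non-uniform spots there were 97, 313, 87.5%, 26.8% and 552 bp, without saturated probes 89, 286, 86.7%, 28.1% and 536 bp, and with dim probes kept 99, 319, 86.8%, 28.3% and 535 bp. Leaving out each array in turn gave 100 to 103 stretches, 322 to 331 probes, 86.6% to 86.7% outside genes, 27% to 28.2% with a coding probe, and 535.5 to 556 bp.

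The number of stretches is thus set largely by threshold and normalization, while most probes lay outside genes under each of these settings. With normexp the arrays no longer gave the same heights: over the 99 stretches, replicate 2 minus replicate 1 had a median of -0.72, and 96 stretches were higher on replicate 1. After loess that median was -0.01, and 94 of the 99 kept a mean above 1.5 on both arrays. The cause was not tested. Of the 38 stretches named by the rule, 37 kept a mean over both arrays above 1.5 with normexp and 36 with loess, and none changed sign under the settings tried for them. On replicate 2 alone, normexp left 30 of the 38 above 1.5 and moved the log2 mean of 24 by over 1.5 times: PMP1 had 1.77, SED1 1.75 and RPS22A/RPL39 1.64. Alternatives planned for base composition were not run. No paired analysis was possible because the arrays form 1 group.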

Other observations

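Several pairs of duplicated genes both have a stretch upstream, a pattern seen after the values were known and given with no test. The MADS-box factors RLM1 and SMP1 had stretch means of 2.81 ± 0.03 and 2.48 ± 0.01 (SD, n = 2 arrays). The filamentation factors PHD1 and SOK2 had 2.43 ± 0.04 and 2.27 ± 0.04, and the homeobox genes TOS8 and CUP9 had 2.70 ± 0.04 and 2.78 ± 0.004. The permease genes BAP2 and BAP3 had 3.19 ± 0.05 and 3.21 ± 0.06, closer to each other than the arrays. RPL33A had 2.49 ± 0.02 and RPL33B 2.76 ± 0.05. How often other duplicated genes share a stretch was not counted.

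The stretches of RPL33A and RPL33B also lie in intergenic regions that hold, by gene order, the genes SNR17B and SNR17A of the U3 small nucleolar RNA. Small nuclear and nucleolar RNA genes lay in 2 of 78 intergenic regions with stretch probes (2.56%), against 47 of 1207 other regions of 3 or more probes (3.89%), so they were no more frequent there. By gene order, tRNA genes lay in 8 of 78 intergenic regions with stretch probes (10.3%), against 202 of 1207 other regions of 3 or more probes (16.7%). Stretches came within 5000 bp of each other in 8 pairs. The nearest pair, KES1/POC4 and RPL33A, was 1078 bp apart.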
